A study of Homo sapiens with 12 samples.

Results

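Transcripts were compared between 2 groups of radiation-induced senescent human skin fibroblasts, one carrying a hairpin against FBXO22 and one a hairpin against luciferase. The comparison covers every gene row of the authors' deposited table of the 2 groups that carries a gene symbol and not a date, which is 55737 of 55765 rows. It draws on 6 of the 12 libraries of the series. HCA2, also called MJ90, is an established line of skin fibroblasts, so the values describe 1 line. The control group (shLuc, 3 libraries) expressed a doxycycline-inducible short hairpin against luciferase and the other group (shFbxo22, 3 libraries) an inducible hairpin against FBXO22. Both groups were labelled senescent with irradiation as the cell condition, and the growth medium of both was DMEM with 10% fetal bovine serum. The labels give a dose of 10 Gy in a treatment field that stands on all 12 samples, the young ones too. The remaining 6 libraries carry the same hairpins in young cells, labelled low passage, and are used here to settle the direction of the fold changes and to set the difference between the hairpins beside that in young cells. The labels name 1 hairpin per target and no rescue, and whether the 3 libraries of a group stem from separate cultures is not stated. The p-values therefore measure only how far these libraries differ, which may be technical.

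FBXO22 belongs to the F-box proteins, which pick the substrates of SCF ubiquitin ligases, complexes that mark other proteins for breakdown by the proteasome. Methylated p53 and the histone demethylase KDM4A are among the proteins it is known to bring to breakdown in human cells. Senescent fibroblasts have left the cell cycle for good, keep CDK inhibitors high and secrete cytokines, proteases and growth factors, a programme in which p53, NF-kB and interferon signalling take part.

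Values below are the authors' log2 fold changes with their standard errors and the adjusted p of a Wald test, for shFbxo22 over shLuc, and a gene was called at an adjusted p under 0.05. The deposited sign had to be turned. A base mean (the mean normalized count over the 6 libraries of a table) and a fold change give the mean of each group, and each group stands in 2 tables. Of 16 choices of sign, 1 made both estimates meet, with a mean absolute log2 gap of 0.0092 over 9109 genes against 0.1306 for the next choice. Group means below are rebuilt in this way as the geometric mean of both estimates, in normalized counts, and are printed where the estimates lie within 0.1 on the log2 scale. Members named from a list reach a base mean of 100 unless stated otherwise. Group means carry no error of their own, and the values of single libraries and the depth per library are unknown here.

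The labelled cell type was checked against marker genes. The 15 fibroblast markers in the table summed to a base mean of 619264 normalized counts, led by COL1A2, a chain of collagen I, at 228330. Of 15 keratinocyte markers 12 had a base mean under 10, and the list summed to 148. The 12 immune markers summed to 93 and the 9 endothelial ones to 190. Listed at 0 were 3 of the immune, 1 of the endothelial and 2 of the melanocyte markers. CDH5, MLANA, CD3E and MS4A1, defining markers of endothelial cells, melanocytes and lymphocytes, were among them. Of 5 tested endothelial markers 2 rose and 2 fell, with KDR, the highest, at -4.65 ± 0.40 per the authors' deposited table. The endothelial sum was 252 in shLuc and 127 in shFbxo22 senescent libraries, and the immune sum 110 and 76. The 7 melanocyte markers summed to 1598, of which MITF, a factor that fibroblasts also express, made up 1565. Of the 15 fibroblast markers 3 were higher (20.0%) and 8 lower (53.3%) with the FBXO22 hairpin, against 20.2% and 19.9% of all genes tested. S100A4 was at a log2 fold change of 1.29 ± 0.08 and the growth factor receptor PDGFRA at -1.63 ± 0.09 per the authors' deposited table. These are bulk samples, so a change in the share of cells of one type or state cannot be told apart from a change in the RNA of each cell.

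The targeted gene went against its label in senescent cells. FBXO22 had a rebuilt mean of 371 normalized counts in the shLuc and 746 in the shFbxo22 senescent libraries, with a log2 fold change of 1.01 ± 0.12 (adjusted p = 7.91e-15) per the authors' deposited table. In young cells the means were 438 and 254, with a log2 fold change of -0.81 ± 0.15 (adjusted p = 1.07e-06) per the authors' deposited table of young cells. The senescent value exceeded the young one by 1.82 ± 0.20 (adjusted p = 9.88e-19; z test of the difference of both fold changes over their joint standard error, Benjamini-Hochberg adjusted over 19966 genes). The FBXO22 protein was not measured. All directions below are therefore those of the libraries labelled shFbxo22 senescent, and not of a lowered FBXO22 transcript.

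**Figure D1:**
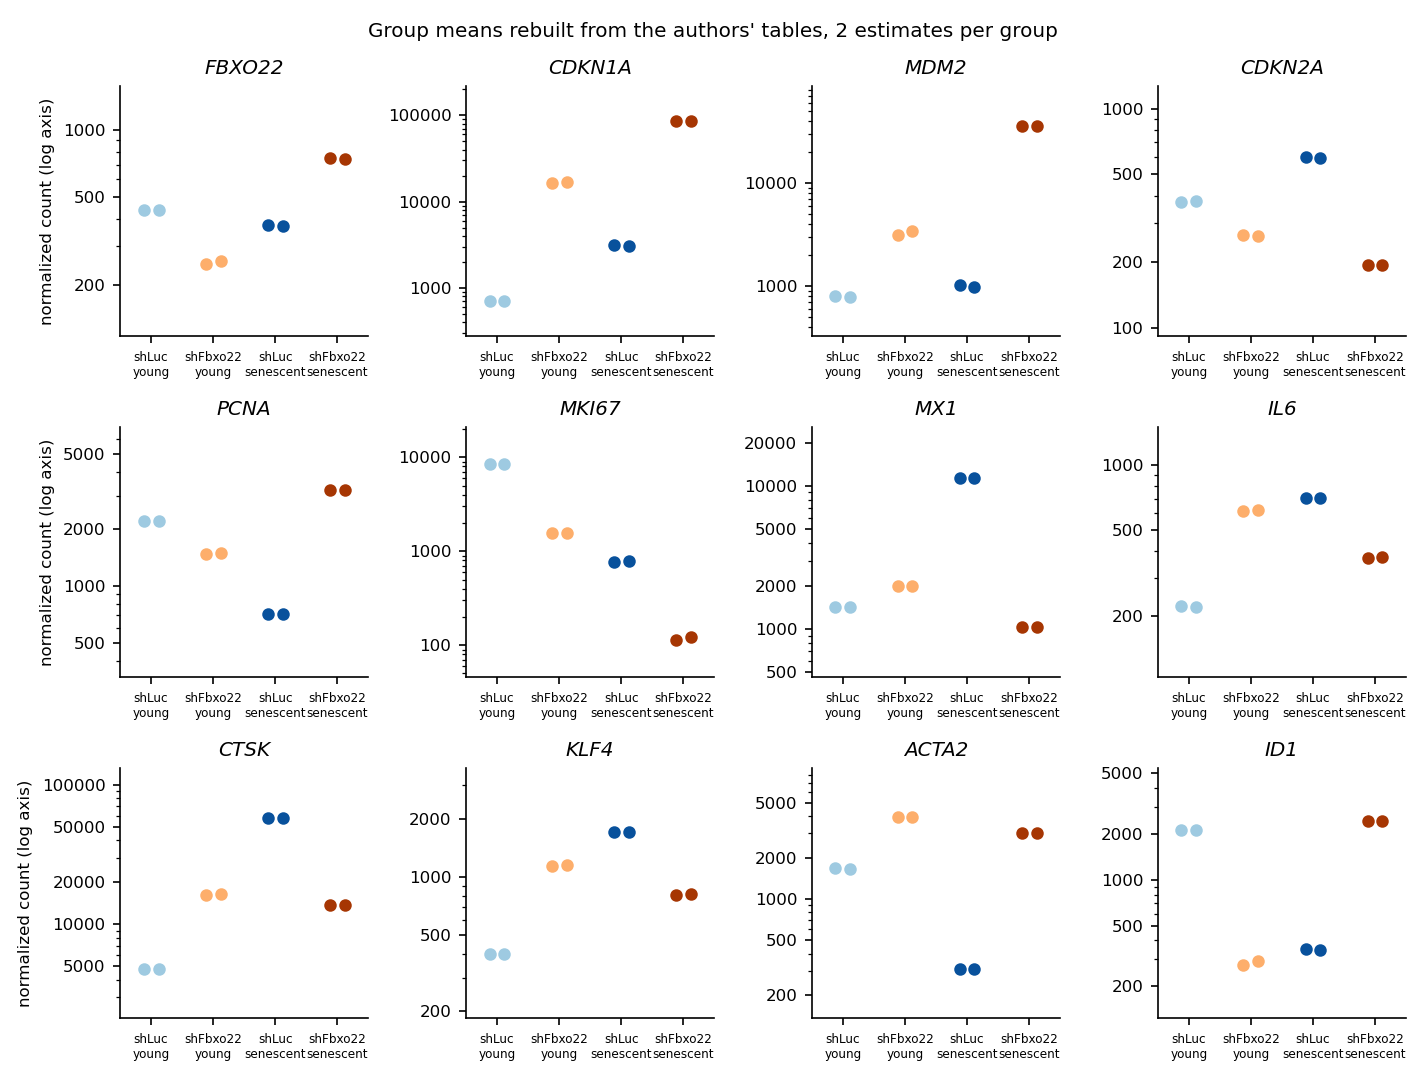
Rebuilt group means of 12 genes in the 4 groups of the series, in normalized counts on log axes, with the estimates from the 2 tables that hold each group drawn as 2 points. FBXO22 is highest in the libraries labelled shFbxo22 senescent, while MX1 and CTSK are highest in the shLuc senescent libraries.

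Ligase subunits and reported substrates of FBXO22 were counted apart. SKP1, the adaptor that holds F-box proteins in the complex, was at 0.33 ± 0.09, and the scaffold CUL1 and the RING protein RBX1 at 0.16 ± 0.09 and 0.04 ± 0.16, per the authors' deposited table. SKP1 rose and the other 2 did not pass. Of 11 reported substrates and partners 1 was higher and 6 were lower, against 20.2% of the 22788 genes tested called higher and 19.9% called lower. KLF4, a transcription factor, went from 1712 to 811 normalized counts, a log2 fold change of -1.08 ± 0.09 per the authors' deposited table. BACH1, a haem-binding repressor, was at -0.91 ± 0.09 per the authors' deposited table. Both fell. The demethylase KDM4B rose (0.83 ± 0.12), while its relative KDM4A at -0.05 ± 0.14 did not pass (adjusted p = 0.815) per the authors' deposited table.

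The difference between the hairpins was broad and nearly even in direction. Of the 22788 genes with an adjusted p, 9140 (40.1%) were called, and the median log2 fold change over all of them was -0.009. Of all genes tested 20.2% were called higher and 19.9% lower, and every list count below is to be read beside these shares. A change of at least 2-fold was seen in 1680 called genes that rose and 1876 that fell, and one of at least 16-fold in 68 and 46. The share called climbed with the base mean, from 4.07% higher and 4.16% lower among genes under 10 normalized counts to 35.1% and 34.1% among those at 5000 or above, where the median standard error was 0.089 against 0.629. The part of the standard error in the lower share was not tested.

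**Figure D2:**
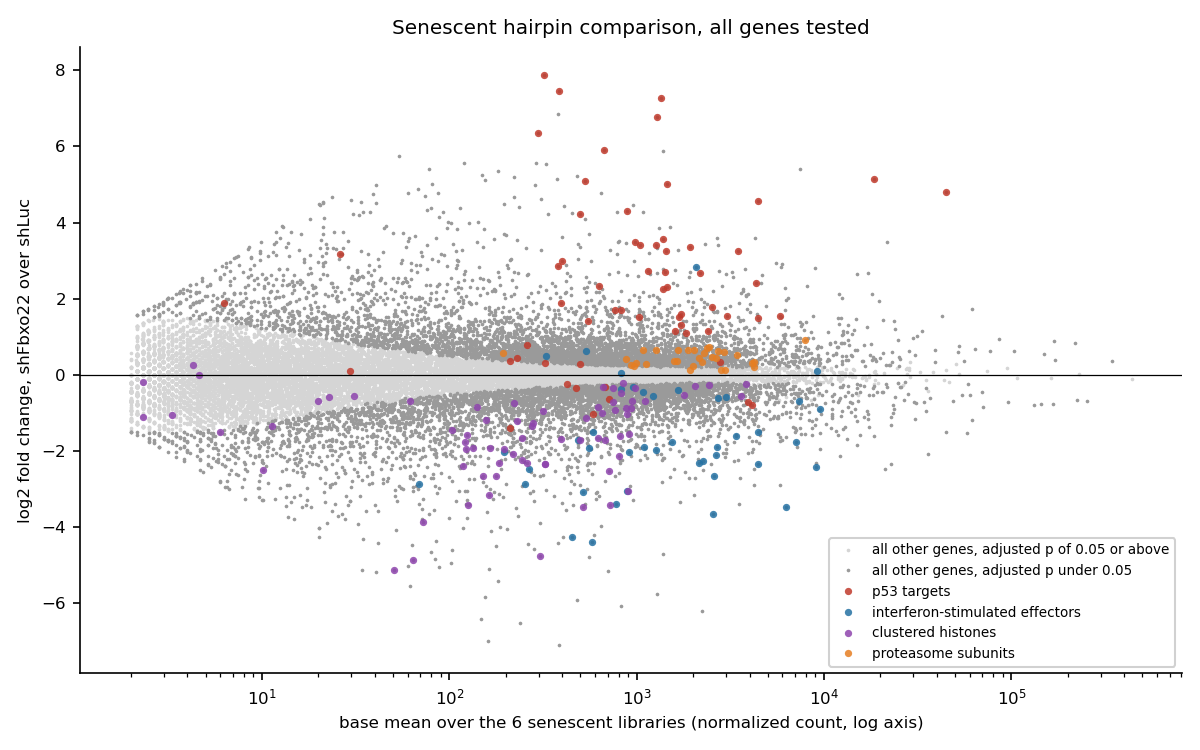
Log2 fold change (shFbxo22 over shLuc, senescent cells) of the 22788 genes tested against their base mean on a log axis, with 4 gene lists in colour. The p53 targets lie mostly above 0, the interferon effectors and clustered histones mostly below, and the 31 proteasome subunits in a narrow band above 0.

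The largest increases among genes whose base mean reached 200 were led by INPP5D, a lipid phosphatase of blood cells, with a log2 fold change of 7.86 ± 0.45, PDE4C, a cyclic AMP phosphodiesterase, with 7.45 ± 0.38, and CLCA2, a p53-induced membrane protein, with 7.26 ± 0.22 per the authors' deposited table. Their shLuc means rebuilt from the 2 tables did not meet within 0.1 on the log2 scale, so no levels are given, and the fold changes of INPP5D and PDE4C set against a shLuc mean under 3 normalized counts are the authors' moderated values and no bound. ANKRD1, a muscle ankyrin repeat protein and YAP target, was at 6.84 ± 0.33 and SPATA18, which takes part in mitochondrial quality control, at 6.77 ± 0.19 per the authors' deposited table. ACER2, an alkaline ceramidase, was at 6.36 ± 0.32 and the decoy death receptor TNFRSF10C at 5.90 ± 0.20 per the authors' deposited table. CYFIP2, a regulator of actin branching, was at 5.87 ± 0.16, the axonemal protein gene WDR63 at 5.56 ± 0.27 and the caveolar protein gene SDPR at 5.53 ± 0.26 per the authors' deposited table. A pair of pregnancy-specific glycoprotein genes was also among the 15: PSG5 went from 336 to 14465 normalized counts, a log2 fold change of 5.41 ± 0.10, and PSG2 was at 5.21 ± 0.28 per the authors' deposited table. Genes of that family are near-identical, so the split of reads between them is uncertain. ITIH5, an inhibitor-like hyaluronan-binding protein, was at 5.22 ± 0.20, GABBR2, a GABA receptor subunit, at 5.14 ± 0.22 and the p53 ligase MDM2 at 5.14 ± 0.11 per the authors' deposited table.

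The largest decreases took in metabolic, secreted and structural genes. ADH1B, an alcohol dehydrogenase, was at -7.10 ± 0.35, the neuronal pentraxin NPTX2 at -6.51 ± 0.37 and CYP24A1, which breaks down vitamin D, at -6.06 ± 0.20 per the authors' deposited table. Their rebuilt shFbxo22 means did not meet within 0.1 on the log2 scale, nor did those of AGT, PPL, APOE, RNF157 and HIST1H3G. For ADH1B and NPTX2 these means lay under 10 normalized counts. A ratio of rebuilt means gave -6.35 for ADH1B, -7.05 for NPTX2 and -6.28 for CYP24A1, so their order is uncertain. CHI3L1, a secreted chitinase-like protein, went from 4408 to 59.4 normalized counts, a log2 fold change of -6.21 ± 0.16, and AGT, the precursor of angiotensin, was at -5.91 ± 0.24 per the authors' deposited table. PTGDS, a prostaglandin D synthase, went from 2501 to 46 normalized counts, a log2 fold change of -5.76 ± 0.16 per the authors' deposited table. GLDN, a gene of the olfactomedin family, was at -5.16 ± 0.17, the cornified envelope protein PPL at -4.78 ± 0.17 and the lipoprotein APOE at -4.71 ± 0.36 per the authors' deposited table. The ubiquitin ligase RNF157 was at -4.57 ± 0.22, the synaptic vesicle factor UNC13A at -4.44 ± 0.22 and the muscle intermediate filament gene DES at -4.41 ± 0.19 per the authors' deposited table. RSAD2, an antiviral enzyme, COL14A1, a fibril-associated collagen, and the histone H3 gene HIST1H3G complete the 15.

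**Figure D3:**
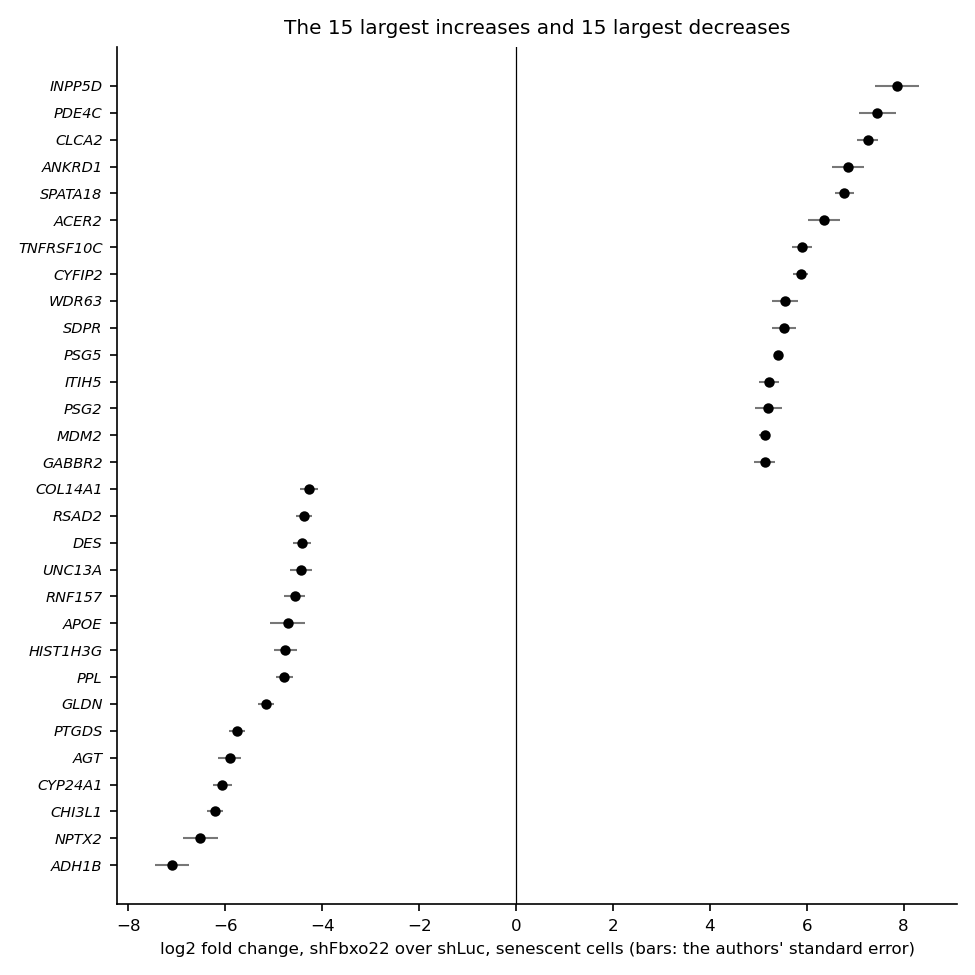
The 15 largest increases and 15 largest decreases among called genes whose base mean reached 200, as log2 fold changes (shFbxo22 over shLuc, senescent cells) with the authors' standard errors as bars. The increases run from 5.14 for GABBR2 to 7.86 for INPP5D and the decreases from -4.27 for COL14A1 to -7.10 for ADH1B.

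Targets of p53, the transcription factor that answers DNA damage, rose in 50 of 61 cases and fell in 7, with a median log2 fold change of 1.89 against -0.01 over all genes tested. INPP5D, PDE4C and CLCA2 entered this list because earlier results of these data had shown them. Without them 47 of 58 rose and 7 fell. Every role in the list took part. Of 9 arrest genes 8 rose, among them CDKN1A, the CDK inhibitor p21, whose rebuilt mean went from 3064 to 85966 normalized counts. That is a log2 fold change of 4.80 ± 0.09, or 27.8-fold, per the authors' deposited table. Of 6 genes that feed back on p53 5 rose, and MDM2 went from 1007 to 35935 normalized counts. Of 17 death genes 15 rose, of 6 repair genes 4, of 13 metabolic and autophagy genes 9 and of 10 secreted and surface genes 9. The members that went the other way were led by FANCC, a Fanconi anaemia core gene, at -1.40 ± 0.17, the carnitine acyltransferase relative CPT1C at -1.03 ± 0.12 and the translesion polymerase subunit REV3L at -0.79 ± 0.10 per the authors' deposited table. The muscle ubiquitin ligase FBXO32 at -0.71 ± 0.09 fell too, and SCO2, a cytochrome oxidase assembly factor, at -0.23 ± 0.14 did not pass, per the authors' deposited table.

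The BCL2 family, whose members set the threshold for apoptosis, moved in both directions. The anti-apoptotic BCL2L1 went from 1355 to 4569 normalized counts (1.75 ± 0.10), and the pro-apoptotic BAX and BAK1 were at 1.60 ± 0.11 and 1.41 ± 0.14, per the authors' deposited table. The BH3-only death genes BMF and BCL2L11 fell (-1.50 ± 0.14 and -1.24 ± 0.20), while BBC3, also BH3-only and a p53 target, rose (0.78 ± 0.21), per the authors' deposited table. Of 15 tested members 6 rose (40.0%) and 7 fell (46.7%), against 20.2% and 19.9% of all genes tested.

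Apart from CDKN1A, no CDK inhibitor rose. CDKN2A, which encodes p16 and ARF, went from 597 to 193 normalized counts, and CDKN2C, encoding p18, from 408 to 136. The log2 fold changes were -1.63 ± 0.14 and -1.60 ± 0.15 per the authors' deposited table. CDKN1C, encoding p57, fell (-1.46 ± 0.21) and CDKN1B, encoding p27, with -0.43 ± 0.11 per the authors' deposited table. CDKN2B, encoding p15, stood at 366 and 372 normalized counts and did not pass (0.01 ± 0.14, 95% interval -0.26 to 0.28) per the authors' deposited table.

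Transcripts of cell division were lower as a group, and a few replication genes were the exception. Of 44 mitosis genes 40 fell (90.9%) and 0 rose, against 19.9% and 20.2% of all genes tested, with a median of -1.58. TOP2A, the topoisomerase that untangles sister chromosomes, went from 1185 to 178 normalized counts (-2.78 ± 0.12), and CDK1, the kinase that starts mitosis, was at -3.31 ± 0.27, per the authors' deposited table. The cyclin gene CCNA2 at -0.13 ± 0.16 and the kinesin KIF18A at -0.06 ± 0.18 did not pass per the authors' deposited table. Among clustered histone genes, whose transcripts accumulate in S phase, 63 of 73 tested fell and 0 rose (median -1.36), and 16 others had no adjusted p. At a base mean of at least 100 they were led by HIST1H3G at -4.76 ± 0.24, HIST1H3B at -3.47 ± 0.16 and the linker histone HIST1H1B at -3.41 ± 0.14 per the authors' deposited table. The linker histone HIST1H1C, at 4290 and 3506 normalized counts, did not pass (-0.25 ± 0.11) per the authors' deposited table. Histone genes are near-identical copies, so reads may be split among them.

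Of 45 replication genes 33 fell and 5 rose. All 6 genes of the MCM2 to MCM7 helicase fell, a subset picked after its values were seen, with MCM7 at -1.69 ± 0.11 and MCM2 at -1.66 ± 0.12 per the authors' deposited table. CDC6, which loads that helicase, fell (-2.13 ± 0.23), and RRM2, a subunit of ribonucleotide reductase, with -2.02 ± 0.15, per the authors' deposited table. PCNA, the sliding clamp and a p53 target, instead went from 709 to 3204 normalized counts, and TYMS, thymidylate synthase, from 367 to 1573. LIG1, the replicative DNA ligase, went from 303 to 1052. These 3 had log2 fold changes of 2.17 ± 0.10, 2.09 ± 0.12 and 1.79 ± 0.12 per the authors' deposited table, and PRIM2, a primase subunit, rose (0.91 ± 0.12) per the authors' deposited table. In the recombination and Fanconi list 17 of 24 fell, among them BRCA1 at -1.67 ± 0.16 and BRCA2 at -1.56 ± 0.22, while the recombination gene RAD51C rose from 156 to 523 normalized counts (1.74 ± 0.16), per the authors' deposited table.

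The regulators of the cycle were mixed. E2F7, a repressor of the E2F family, went from 321 to 2015 normalized counts (2.64 ± 0.11), while MYBL2 and FOXM1, activators of late cell cycle genes, fell (-2.48 ± 0.19 and -0.63 ± 0.12), per the authors' deposited table. The D-type cyclins CCND1 and CCND2 rose (1.07 ± 0.09 and 1.36 ± 0.18), and their partner kinase CDK6 rose (0.93 ± 0.11), per the authors' deposited table. The phosphatase CDC25B fell from 7459 to 1016 normalized counts (-2.89 ± 0.08) per the authors' deposited table. In the nuclear lamina and chromatin list 3 of 22 rose and 13 fell. LMNB1, TMPO and LBR of the nuclear envelope were at -1.66 ± 0.21, -1.40 ± 0.13 and -1.07 ± 0.14 and HMGB2 at -1.50 ± 0.13, whereas HMGA2, a chromatin protein of growing cells, rose (1.87 ± 0.10), per the authors' deposited table. LMNA, the gene of lamins A and C, did not pass (0.03 ± 0.12) per the authors' deposited table.

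Subunits of the proteasome and of the mitochondrial machinery rose together by small amounts. Of 31 proteasome subunits 25 rose and 0 fell, against 20.2% higher and 19.9% lower among all genes tested, with a median log2 fold change of 0.43. PSMD2, a subunit of the regulatory cap, went from 5480 to 10292 normalized counts (0.90 ± 0.08), and the core subunits PSMB6 and PSMB2 were at 0.69 ± 0.12 and 0.66 ± 0.10, per the authors' deposited table. PSMA7 and PSMC3, at 0.12 ± 0.08 and 0.12 ± 0.09, did not pass per the authors' deposited table. PSMB9, a core subunit of the interferon-induced immunoproteasome, was counted with antigen presentation and fell (-1.04 ± 0.14) per the authors' deposited table.

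Of 75 tested proteins of the mitochondrial ribosome 44 rose and 1 fell (median 0.40), and of 81 tested nuclear genes of the respiratory chain and ATP synthase 49 rose and 1 fell (median 0.47). MRPL39 was at 1.59 ± 0.13 and MRPL33 at 1.11 ± 0.11, and MRPL14 at -0.34 ± 0.10 was the member that fell, per the authors' deposited table. In the chain, the complex I subunits NDUFV3 and NDUFA9 were at 1.12 ± 0.11 and 1.03 ± 0.16, the cytochrome oxidase subunit COX7A2 at 0.92 ± 0.10 and the ATP synthase subunit ATP5J2 at 1.19 ± 0.11 per the authors' deposited table. The member that fell was NDUFA4L2 at -1.37 ± 0.40, a hypoxia-induced subunit relative named after its value was seen, per the authors' deposited table. In young cells the medians of the 3 lists were -0.09, 0.00 and 0.15. The senescent value was above the young one, by the test of the difference, for 22 of 31 proteasome, 36 of 75 mitochondrial ribosomal and 26 of 80 respiratory chain genes, against 16.9% of the 19966 genes tested for it. It was below the young one for 0, 0 and 1 of them, against 16.3%.

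Transcripts of the mitochondrial genome itself did not follow the nuclear genes. Of 37 tested 6 rose (16.2%) and 14 fell (37.8%), against 20.2% and 19.9% of all genes tested. The cytochrome oxidase genes MT-CO1, MT-CO2 and MT-CO3 rose (1.14 ± 0.12, 1.11 ± 0.11 and 1.46 ± 0.11), and MT-RNR1, the small ribosomal RNA, with 0.62 ± 0.11, per the authors' deposited table. MT-ND1, a complex I subunit, fell (-1.08 ± 0.11), and MT-CYB, the cytochrome b gene, did not pass (-0.06 ± 0.12), per the authors' deposited table. Of 13 protein coding genes 4 rose and 5 fell, and of 22 transfer RNA genes none rose and 9 fell, subsets picked after their values were seen. MT-TN, a transfer RNA gene, was at -1.43 ± 0.13 per the authors' deposited table. Cytosolic ribosomal protein genes had 8 higher (9.2%) and 23 lower (26.4%) of 87 tested (median -0.09), beside the same 20.2% and 19.9%. RPS27L, a paralog of RPS27 that p53 is known to induce, stood apart with a rise from 1775 to 5947 normalized counts (1.74 ± 0.09) per the authors' deposited table. RPLP0 and RPL4 did not pass, at 0.08 ± 0.09 and 0.01 ± 0.08 per the authors' deposited table.

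**Figure D4:**
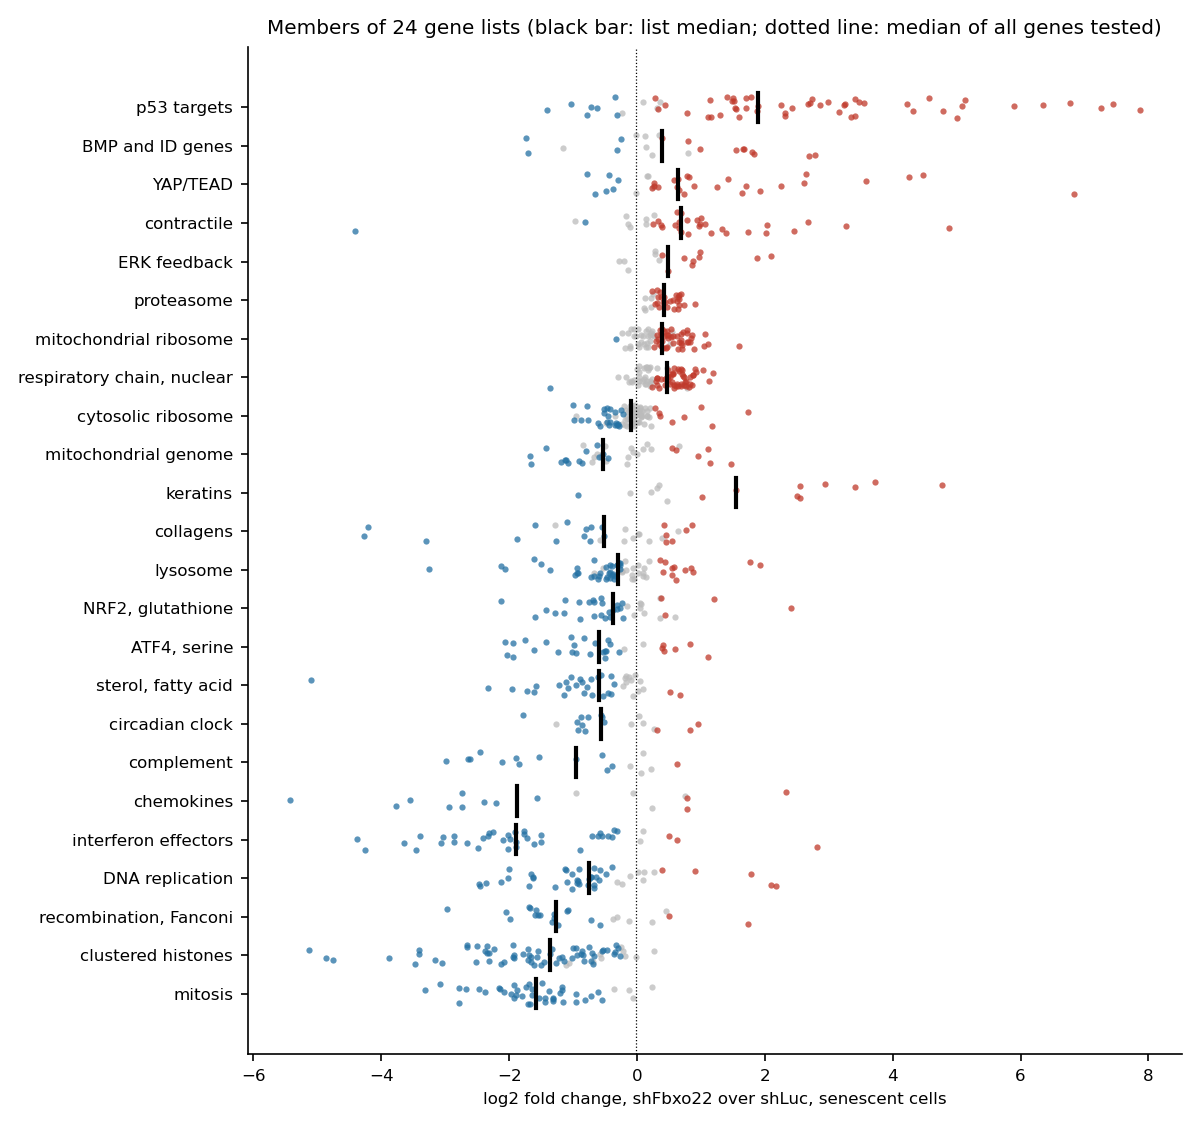
Log2 fold changes (shFbxo22 over shLuc, senescent cells) of the tested members of 24 gene lists, with called members in red (higher) or blue (lower), others in grey, the list median as a black bar and the median of all genes tested as a dotted line. The p53 targets have a median of 1.89 and the interferon effectors one of -1.90, while proteasome and mitochondrial ribosome members crowd just above 0.

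Genes induced by interferon, which hold back virus replication, were lower in the libraries labelled shFbxo22 senescent. Of 42 effector genes 37 fell and 3 rose, with a median of -1.90. The GTPase gene MX1 stood at 11380 normalized counts in shLuc and 1038 in shFbxo22 senescent libraries, beside 1419 and 1998 in the young ones. Its log2 fold change was -3.46 ± 0.09 in senescent and 0.49 ± 0.10 in young cells per the authors' deposited tables, and the difference of -3.95 ± 0.13 passed (adjusted p = 2.62e-193). MX2 went from 4704 to 378 normalized counts, OASL, an oligoadenylate synthase relative, from 857 to 44.6 and RSAD2 from 1099 to 52.8. Their log2 fold changes were -3.65 ± 0.10, -4.26 ± 0.17 and -4.38 ± 0.16 per the authors' deposited table. The exceptions were TRIM22 and TRIM5, antiviral TRIM proteins, at 2.82 ± 0.09 and 0.62 ± 0.11, and IFI27, a mitochondrial interferon-induced protein, at 0.50 ± 0.13 per the authors' deposited table. IFI6 and the nuclear body gene PML did not pass, at 0.09 ± 0.08 and 0.04 ± 0.12 per the authors' deposited table. For 40 of 42 effectors the hairpin difference lay below that in young cells by the test of the difference, and for 0 above. Over all genes tested for it these shares were 16.3% and 16.9%.

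Many of these genes carry the core of the interferon-stimulated response element, the site bound by the ISGF3 complex, next to their start. The core was searched as GAAANNGAAA on both strands, overlapping matches included, in the RefSeq promoter windows of build GRCh38.p14, which run from 250 bases before to 50 after the start. Of 42 effectors 34 matched a window by symbol, and 23 of these windows (67.6%) held the core, against 996 of all 27305 windows (3.65%). The 150 bases before the start are shown for IFI44L, HERC5, BST2 and ISG15, each on its gene's strand, with matches in capitals on either strand. These were the called effectors with the largest absolute fold changes among those with a match there and a base mean of at least 100, a choice made from the values. A match is a description of letters and not a measured site.
IFI44L (chr1:78620298-78620447, plus strand, log2 fold change -3.39 per the authors' deposited table): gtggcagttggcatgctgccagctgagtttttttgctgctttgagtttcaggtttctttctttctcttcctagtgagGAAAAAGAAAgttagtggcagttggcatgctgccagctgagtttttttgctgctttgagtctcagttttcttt
HERC5 (chr4:88456969-88457118, plus strand, log2 fold change -3.07 per the authors' deposited table): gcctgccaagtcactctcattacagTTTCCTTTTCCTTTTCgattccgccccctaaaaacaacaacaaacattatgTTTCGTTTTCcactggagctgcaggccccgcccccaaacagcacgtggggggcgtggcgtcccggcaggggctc
BST2 (chr19:17405631-17405780, minus strand, log2 fold change -2.87 per the authors' deposited table): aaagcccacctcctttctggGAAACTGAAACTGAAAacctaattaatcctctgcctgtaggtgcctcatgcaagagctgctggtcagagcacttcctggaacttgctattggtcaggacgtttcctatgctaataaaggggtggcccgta
ISG15 (chr1:1013347-1013496, plus strand, log2 fold change -2.67 per the authors' deposited table): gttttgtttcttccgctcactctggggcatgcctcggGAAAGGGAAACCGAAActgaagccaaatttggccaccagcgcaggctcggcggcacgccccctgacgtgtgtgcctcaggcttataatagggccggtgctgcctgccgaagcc

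The sensors and relays before the effectors were also lower in part. The RNA sensors DDX58 (RIG-I) and IFIH1 (MDA5) went from 2237 to 471 and from 1048 to 241 normalized counts, with log2 fold changes of -2.25 ± 0.10 and -2.13 ± 0.12 per the authors' deposited table. The DNA sensor IFI16 fell (-1.55 ± 0.09), while TMEM173, which encodes the adaptor STING, did not pass (-0.08 ± 0.11), per the authors' deposited table. The Toll-like receptors TLR3 and TLR4 rose (2.26 ± 0.19 and 1.80 ± 0.14) per the authors' deposited table. Among the transcription factors IRF7 fell (-3.17 ± 0.19) and STAT4 rose (3.24 ± 0.26), and STAT3 stood at 7591 and 7597 normalized counts (0.00 ± 0.08), per the authors' deposited table. In antigen presentation 15 of 27 genes fell, with HLA-E at -1.20 ± 0.09 and HLA-F at -1.21 ± 0.13, whereas HLA-B and the shared light chain B2M did not pass at -0.13 ± 0.09 and -0.14 ± 0.11, per the authors' deposited table. HLA genes share sequence, so their counts may be split.

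Inflammatory secreted factors moved in both directions. Of 16 tested chemokines, with a median of -1.88, 9 fell (56.2%) and 3 rose (18.8%), against 19.9% and 20.2% of all genes tested. The neutrophil attractant CXCL1 went from 773 to 66.5 normalized counts and IL8 from 188 to 34.9, with log2 fold changes of -3.56 ± 0.16 and -2.40 ± 0.22 per the authors' deposited table. CXCL6 was at -5.43 ± 0.31 and the stromal chemokine CXCL12 at -1.56 ± 0.10 per the authors' deposited table. CXCL14 and the monocyte attractant CCL2 rose, with 2.33 ± 0.14 and 0.78 ± 0.14 per the authors' deposited table. IL6, a leading cytokine of senescent fibroblasts, fell (-0.93 ± 0.12), and IL6ST, the signal-transducing receptor chain of its family, with -0.91 ± 0.10, per the authors' deposited table. LIF, also of that family, rose (0.76 ± 0.15) per the authors' deposited table. In the IL1 family the receptor IL1R1 went from 14973 to 3009 normalized counts (-2.32 ± 0.08) and the receptor antagonist IL1RN from 294 to 25.3 (-3.59 ± 0.24), per the authors' deposited table. The agonists IL1A and IL1B rose (4.20 ± 0.48 and 2.89 ± 0.32) per the authors' deposited table. These low genes were picked after their values were seen.

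NF-kB genes moved in both directions. Of 5 subunits 3 fell and 0 rose, of 10 inhibitors and kinases 5 rose and 0 fell, and of 8 targets 5 fell and 2 rose. Of all 23 genes of the list 7 rose (30.4%) and 8 fell (34.8%), against 20.2% and 19.9% of all genes tested. SOD2, the mitochondrial superoxide dismutase, went from 35710 to 6507 normalized counts (-2.46 ± 0.09), TNFAIP6 from 1204 to 77.6 (-3.97 ± 0.14) and the adhesion molecule ICAM1 from 4091 to 1353 (-1.61 ± 0.09), per the authors' deposited table. RELA, the p65 subunit, did not pass (-0.19 ± 0.10) per the authors' deposited table. Of 10 tested complement components 9 fell and none rose, among them C1S and C1R, proteases of the classical pathway, at -1.84 ± 0.08 and -1.53 ± 0.09, and CFB at -1.90 ± 0.13, per the authors' deposited table. C3 at -0.11 ± 0.10 did not pass per the authors' deposited table. Of 16 prostaglandin genes 9 fell (56.2%) and 1 rose (6.25%), against 19.9% and 20.2% of all genes tested. The synthases PTGES and PTGIS were at -1.15 ± 0.14 and -1.13 ± 0.09 per the authors' deposited table. PTGS2, the inducible cyclooxygenase, was the member that rose, from 242 to 834 normalized counts (1.77 ± 0.14) per the authors' deposited table. In the TNF superfamily the receptors TNFRSF1A and TNFRSF1B fell (-0.44 ± 0.09 and -2.16 ± 0.17), and TNFRSF12A, the receptor of TWEAK, rose (1.52 ± 0.12), per the authors' deposited table.

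Among growth factor genes, ligands and receptors were counted apart. Of 19 tested ligands 11 rose and 6 fell, and of 8 receptors 2 rose and 4 fell, a difference that was not tested. The ERBB ligand NRG1 went from 127 to 1476 normalized counts, FGF1 from 45.8 to 470 and FGF2 from 2558 to 9973. Their log2 fold changes were 3.52 ± 0.14, 3.33 ± 0.20 and 1.96 ± 0.12 per the authors' deposited table. VEGFA and HGF fell (-1.30 ± 0.10 and -1.25 ± 0.18), as did the PDGF receptors PDGFRA and PDGFRB with -1.63 ± 0.09 and -1.03 ± 0.09, per the authors' deposited table. EGFR stood at 4705 and 4608 normalized counts and did not pass (-0.04 ± 0.08) per the authors' deposited table. Of 15 listed phosphatases and feedback inhibitors of ERK and related kinases 9 rose (60.0%) and 0 fell, against 20.2% and 19.9% of all genes tested. The phosphatases DUSP10 and DUSP1 were at 2.10 ± 0.10 and 1.88 ± 0.10 per the authors' deposited table. Immediate early genes were split, with FOSL1 and EGR1 at 1.73 ± 0.11 and 1.51 ± 0.17 and JUNB and ZFP36 at -1.71 ± 0.14 and -1.14 ± 0.10, per the authors' deposited table.

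Among activin and BMP genes, the BMP targets ID1 and ID3 showed some of the largest crossings between senescent and young cells. INHBA, the activin A subunit, went from 168 to 2460 normalized counts (3.86 ± 0.14), the BMP-like ligand GDF6 was at 3.57 ± 0.22 and TGFB2 at 1.48 ± 0.21 per the authors' deposited table. The latent TGF-beta binding protein LTBP4 fell (-2.12 ± 0.13), and the receptor TGFBR2 did not pass (-0.10 ± 0.08), per the authors' deposited table. Of 7 targets of BMP signalling 6 rose and 0 fell. ID1, an inhibitor of differentiation factors, stood at 350 normalized counts in shLuc and 2418 in shFbxo22 senescent libraries, and at 2132 and 284 in the young ones. The hairpins thus stood in the opposite order in the 2 states. Its log2 fold change was 2.78 ± 0.13 in senescent and -2.95 ± 0.13 in young cells per the authors' deposited tables, and ID3 was at 2.70 ± 0.14 and -2.77 ± 0.11. The inhibitory SMAD6 rose (1.83 ± 0.15) per the authors' deposited table.

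Targets of YAP and TEAD, which answer cell stretch and spreading, and genes of the contractile apparatus were higher. Of 18 YAP targets 16 rose and 1 fell, and of 16 pathway members 8 rose and 5 fell. The matricellular CTGF went from 81.9 to 1831 normalized counts and CYR61 from 411 to 4944, with log2 fold changes of 4.47 ± 0.14 and 3.58 ± 0.10 per the authors' deposited table. WWTR1, the YAP paralog TAZ, fell (-0.65 ± 0.09) and TEAD2 with -0.79 ± 0.10 per the authors' deposited table. Of 36 contractile genes 27 rose and 2 fell. Smooth muscle actin ACTA2 stood at 310 and 3032 normalized counts in the senescent and 1670 and 3933 in the young groups, shLuc first. TPM1, a tropomyosin, and TAGLN, transgelin, rose (2.67 ± 0.09 and 2.02 ± 0.10) per the authors' deposited table. The tropomyosin TPM4 and the non-muscle myosin MYH9 did not pass, at 0.13 ± 0.08 and 0.14 ± 0.12, and DES and the non-muscle myosin MYH10 fell, with MYH10 at -0.82 ± 0.09, per the authors' deposited table. Of the 10 smooth muscle and pericyte markers 6 rose and 2 fell, with a summed mean of 8556 normalized counts in shLuc and 11224 in shFbxo22 senescent libraries. The lists share LMOD1, MYH11 and DES, and the part of such cells in this result was not tested.

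Promoters of both lists, and those of the p53 targets, were searched in the same windows. The p53 half-site lay in 4 of the 49 p53 target windows found (8.16%) and in 1786 of all 27305 (6.54%). The CArG box, the site of serum response factor, lay in 8 of the 31 contractile windows found (25.8%) and in 351 of all 27305 (1.29%). It is shown in capitals for ACTG1, SRF and FLNA, an actin gene, the response factor itself and filamin A, the called contractile genes with the largest absolute fold changes among those with a match in the 150 bases before the start and a base mean of at least 100. For the TEAD core CATTCC, read on both strands, fewer than 80% of the YAP list had a window, so no share of that list is given. The core is short and lay in 3836 of all 27305 windows (14.0%). It is shown in capitals for ANKRD1 and CTGF, chosen from their values by the same rule.
ACTG1 (chr17:81512800-81512949, minus strand, log2 fold change 0.94 per the authors' deposited table): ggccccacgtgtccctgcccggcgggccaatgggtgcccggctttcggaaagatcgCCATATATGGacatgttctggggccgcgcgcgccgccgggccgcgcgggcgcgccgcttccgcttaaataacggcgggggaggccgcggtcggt
SRF (chr6:43171119-43171268, plus strand, log2 fold change 0.65 per the authors' deposited table): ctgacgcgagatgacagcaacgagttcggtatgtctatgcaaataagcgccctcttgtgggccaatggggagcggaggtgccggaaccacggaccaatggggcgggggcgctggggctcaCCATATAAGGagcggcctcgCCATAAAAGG
FLNA (chrX:154374635-154374784, minus strand, log2 fold change 0.62 per the authors' deposited table): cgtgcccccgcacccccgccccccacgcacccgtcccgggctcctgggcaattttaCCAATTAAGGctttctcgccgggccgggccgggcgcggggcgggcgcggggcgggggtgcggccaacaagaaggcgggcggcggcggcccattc
ANKRD1 (chr10:90921088-90921237, minus strand, log2 fold change 6.84 per the authors' deposited table): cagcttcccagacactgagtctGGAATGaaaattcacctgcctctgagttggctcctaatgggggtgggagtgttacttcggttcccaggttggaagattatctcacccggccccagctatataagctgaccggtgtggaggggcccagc
CTGF (chr6:131951373-131951522, minus strand, log2 fold change 4.47 per the authors' deposited table): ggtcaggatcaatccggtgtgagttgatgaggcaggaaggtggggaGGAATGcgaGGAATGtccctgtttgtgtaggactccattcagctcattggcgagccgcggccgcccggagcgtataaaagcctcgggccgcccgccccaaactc

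In the matrix 6 of 29 collagen genes rose (20.7%), 13 fell (44.8%) and 10 did not pass. The share that rose was near the 20.2% of all genes tested, and 19.9% of those fell. COL1A1, at 87980 and 100384 normalized counts, and COL1A2, at 225410 and 230673, had log2 fold changes of 0.19 ± 0.14 and 0.03 ± 0.13 per the authors' deposited table. The basement membrane zone collagen COL15A1 went from 1115 to 61.9 and COL14A1 from 764 to 40.4 normalized counts, and COL21A1 was at -3.29 ± 0.25 per the authors' deposited table. COL5A2 and COL11A1, chains of minor fibrillar collagens, rose (0.86 ± 0.10 and 0.76 ± 0.13) per the authors' deposited table. Elastin, ELN, rose from 2106 to 10198 normalized counts (2.27 ± 0.14), MFAP5 of the microfibrils with 4.43 ± 0.19 and the large proteoglycan VCAN with 2.36 ± 0.12, per the authors' deposited table. MFAP4 and the small proteoglycan FMOD fell (-2.23 ± 0.11 and -1.73 ± 0.11) per the authors' deposited table. The integrin chains ITGA6 and ITGA3 rose (2.40 ± 0.12 and 1.25 ± 0.10), and the laminin chains split, with LAMC1 at 1.02 ± 0.07 and LAMB1 at -1.40 ± 0.08, per the authors' deposited table.

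Proteases and their inhibitors outside the cell were also split. The stromelysin MMP3 went from 4485 to 19669 normalized counts (2.13 ± 0.08) and MMP11 from 3274 to 502 (-2.70 ± 0.12), while MMP2, MMP14 and MMP1 fell by less, with -0.71 ± 0.09, -0.72 ± 0.09 and -0.82 ± 0.08, per the authors' deposited table. F3, tissue factor, which starts coagulation, went from 77.5 to 1502 normalized counts (4.26 ± 0.14), and its counterpart THBD, thrombomodulin, from 414 to 84.6 (-2.28 ± 0.17), per the authors' deposited table. The collagen chaperone SERPINH1 fell (-1.15 ± 0.08) and SERPINF1, an inhibitor of vessel growth, with -2.91 ± 0.09 per the authors' deposited table. In the IGF axis the protease PAPPA, which frees IGF from its binding proteins, went from 653 to 7891 normalized counts (3.58 ± 0.09), and the binding proteins IGFBP5 and IGFBP3 were at 1.93 ± 0.09 and 1.40 ± 0.09, per the authors' deposited table. IGFBP4, a substrate of PAPPA, fell (-0.50 ± 0.09) per the authors' deposited table.

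Lysosomal enzymes were mostly lower, while the lysosomal membrane and proton pump were mixed. Of 13 lysosomal proteases 10 fell and 2 rose, of 27 other hydrolases 19 fell and 3 rose, and of 23 tested membrane and pump genes 5 fell and 7 rose. The membrane and pump shares, 21.7% lower and 30.4% higher, stood beside 19.9% and 20.2% of all genes tested. CTSK, cathepsin K, stood at 57845 and 13823 normalized counts in the senescent and 4825 and 16349 in the young groups, shLuc first. Its log2 fold change was -2.07 ± 0.09 in senescent and 1.75 ± 0.11 in young cells per the authors' deposited tables. Cathepsin L, CTSL, fell (-1.62 ± 0.11), whereas cathepsin C, CTSC, and the fucosidase FUCA1 rose (1.77 ± 0.09 and 1.93 ± 0.12), per the authors' deposited table. The pump subunits ATP6V1D and ATP6V1H rose (0.87 ± 0.10 and 0.84 ± 0.09), and LAMP1 did not pass (-0.04 ± 0.08), per the authors' deposited table. Of 32 autophagy genes 6 rose (18.8%) and 8 fell (25.0%), shares near the 20.2% and 19.9% of all genes tested, with the protease ATG4A at 1.52 ± 0.15 and the cargo receptor SQSTM1, from 42377 to 18911 normalized counts, at -1.17 ± 0.11, per the authors' deposited table.

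Genes of iron handling and of the oxidant defence moved in both directions. Of 16 tested iron genes 6 rose (37.5%) and 5 fell (31.2%), and of 19 tested antioxidant enzymes 7 rose and 7 fell (36.8% each). Among all genes tested 20.2% rose and 19.9% fell. HEPH, with the largest change of the iron list, rose (4.61 ± 0.21) per the authors' deposited table. The ferritin chains FTH1 and FTL went from 23304 to 7726 and from 180321 to 106835 normalized counts, with log2 fold changes of -1.59 ± 0.11 and -0.76 ± 0.10 per the authors' deposited table. NCOA4, which delivers ferritin to the lysosome, rose (0.88 ± 0.08), and HMOX1, haem oxygenase, did not pass (0.04 ± 0.09), per the authors' deposited table. Of 37 NRF2 and glutathione genes 24 fell (64.9%) and 4 rose (10.8%). The cystine transporter SLC7A11 was at -1.42 ± 0.09 and AKR1C1 at -2.12 ± 0.11, and glutathione synthetase GSS rose (1.20 ± 0.10), per the authors' deposited table. TXNRD1, thioredoxin reductase, stood at 12206 and 12708 normalized counts and did not pass (0.05 ± 0.08) per the authors' deposited table. The peroxidases moved apart, with GPX1 at 1.04 ± 0.11 and GPX4 at -1.03 ± 0.09 per the authors' deposited table. Of 11 tested metallothionein and zinc genes 7 fell, with MT2A at -0.96 ± 0.11 per the authors' deposited table.

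In amino acid metabolism 5 of 18 enzymes of the glutamine list rose (27.8%) and 8 fell (44.4%), against 20.2% and 19.9% of all genes tested. The mitochondrial transaminase GOT2 went from 1776 to 3935 normalized counts in the libraries labelled shFbxo22 senescent (1.14 ± 0.09) per the authors' deposited table. GFPT2 fell (-1.40 ± 0.13) per the authors' deposited table. Of 7 transporters 1 rose (14.3%) and 5 fell (71.4%). The glutamine transporters SLC1A5 and SLC38A1 fell (-1.63 ± 0.10 and -1.33 ± 0.09), and SLC38A2 did not pass (0.04 ± 0.10), per the authors' deposited table. Of 30 tested genes of the ATF4 amino acid response and serine synthesis 22 fell (73.3%) and 6 rose (20.0%). PHGDH, the first enzyme of serine synthesis, went from 4743 to 1234 normalized counts (-1.95 ± 0.10) and the pseudokinase TRIB3 from 4646 to 1118 (-2.06 ± 0.09), per the authors' deposited table. SESN2, a leucine sensor and also a p53 target, rose (1.11 ± 0.09) per the authors' deposited table. The transfer RNA synthetases split, with WARS at -1.44 ± 0.08 and AARS at -0.98 ± 0.08 but VARS at 0.93 ± 0.09 per the authors' deposited table.

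Of 38 sterol and fatty acid genes 25 fell (65.8%) and 2 rose (5.26%), against 19.9% and 20.2% of all genes tested. SCD, the stearoyl desaturase, went from 37916 to 7578 normalized counts (-2.33 ± 0.09) and FADS1, a desaturase of polyunsaturated fatty acids, from 15040 to 3885 (-1.96 ± 0.08), per the authors' deposited table. HMGCS1 and FDFT1 of the sterol pathway did not pass, at -0.13 ± 0.09 and -0.02 ± 0.09 per the authors' deposited table. Of 23 glycolysis genes 6 rose (26.1%), 3 fell (13.0%) and 14 did not pass, with a median of 0.11. LDHA, PGK1 and PKM rose (0.84 ± 0.08, 0.76 ± 0.12 and 0.66 ± 0.08), and GAPDH did not pass (0.11 ± 0.10), per the authors' deposited table. Of 13 hypoxia genes 2 rose (15.4%) and 6 fell (46.2%), with CA12 at -1.28 ± 0.09 and NDRG1 at -1.06 ± 0.09 per the authors' deposited table.

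Other regulators of cell state showed mixed lists. Of 18 clock genes 10 fell (55.6%) and 3 rose (16.7%), against 19.9% and 20.2% of all genes tested. NFIL3 was at -1.79 ± 0.11 and PER1 at -0.94 ± 0.17, against PER2 at 0.95 ± 0.20 per the authors' deposited table. Among mesenchymal transcription factors PRRX1 went from 16928 to 6116 normalized counts (-1.47 ± 0.08) and TWIST1 from 1522 to 727 (-1.07 ± 0.13), while RUNX1 and SNAI2 rose (0.71 ± 0.10 and 0.62 ± 0.09), per the authors' deposited table. In WNT signalling the target AXIN2 fell (-2.26 ± 0.21) and the ligands WNT5B and WNT5A rose (1.22 ± 0.09 and 0.89 ± 0.09), per the authors' deposited table. NOTCH3 and NOTCH1 rose (0.86 ± 0.13 and 0.82 ± 0.15), while the ligand JAG1 and the target HES1 fell (-0.51 ± 0.12 and -0.68 ± 0.20), per the authors' deposited table. The chaperone HSPA4L rose from 57.5 to 992 normalized counts (4.09 ± 0.17), and the heat-inducible HSPA1A fell (-1.16 ± 0.13), per the authors' deposited table. Its copy HSPA1B is near-identical, so reads may be split between them.

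Several gene families were counted whole. Of 15 tested keratin genes (55 in the table) 9 rose and 1 fell, with KRT7 and KRT34 at 3.41 ± 0.14 and 4.77 ± 0.16, KRT19 at 1.55 ± 0.14 and KRT8 at -0.92 ± 0.19 per the authors' deposited table. Of 15 keratinocyte markers 6 were tested, and their summed mean was 144 normalized counts in shLuc and 152 in shFbxo22 senescent libraries. Their part in the keratin result was not tested. Of 498 tested zinc finger genes 139 rose (27.9%) and 54 fell (10.8%), against 20.2% and 19.9% of all genes tested. Of 148 tested LINC RNAs 40 rose (27.0%) and 10 fell (6.76%), and of 325 tested antisense RNAs 54 (16.6%) and 30 (9.23%). LINC01085 and LINC00984 were at 3.82 ± 0.28 and 3.68 ± 0.21 and GAS6-AS2 at 2.47 ± 0.19 per the authors' deposited table. Whether the authors' counting used strand is not given in the sources used here, so reads of an antisense RNA and of its partner gene cannot be told apart. Of 25 tested HOX genes, which mark position along the body, 7 rose and 1 fell. Among those with a base mean of at least 100 HOXD10 led with 0.55 ± 0.19, while HOXC13 and HOXD13, picked after their values were seen, were at 3.37 ± 0.34 and -1.25 ± 0.31, per the authors' deposited table. Of 42 tested protocadherins 14 rose (33.3%) and 4 fell (9.52%), with PCDHGC3 at -1.16 ± 0.10 per the authors' deposited table, and gamma members share exons. Among other F-box genes 13 of 57 tested rose (22.8%) and 8 fell (14.0%), with FBXW7, the substrate receptor for cyclin E, at 1.05 ± 0.11 and FBXO5, an inhibitor of the anaphase-promoting complex, at -1.46 ± 0.21 per the authors' deposited table.

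The difference between the hairpins in senescent cells was set beside that in young cells, which rests on other libraries. Over 19966 genes with an adjusted p in both tables the difference of both log2 fold changes passed for 6625 (33.2%), with the senescent value above the young one for 3376 and below it for 3249. The largest differences above 0 among genes whose base mean reached 200 were led by ANKRD1 with 6.64 ± 0.37, ID1 with 5.74 ± 0.18 and ID3 with 5.47 ± 0.17. SERPINB7, an epithelial serpin, followed with 4.41 ± 0.22 and IL7R, the receptor of IL7, with 4.26 ± 0.16. KRT7 and the oxytocin receptor OXTR had 4.24 ± 0.18 and 4.11 ± 0.16. These 7 genes rose in senescent cells, and 5 of them fell in young ones, with ANKRD1 at 0.20 ± 0.16 and SERPINB7 at -0.15 ± 0.14 per the authors' deposited table of young cells as the 2 that did not pass there. The largest differences below 0 were led by FABP3, a fatty acid-binding protein, at -2.82 ± 0.12 in senescent and 2.72 ± 0.12 in young cells per the authors' deposited tables. FAM20A, a pseudokinase of the secretory pathway, was at -1.96 ± 0.12 and 2.91 ± 0.15, the epidermal secreted protein DMKN at -3.40 ± 0.09 and 1.40 ± 0.12, and the scavenger receptor COLEC12 at -3.17 ± 0.10 and 1.38 ± 0.13, in the same order of tables deposited by the authors. OAS1, MMP11 and PLXNC1, a semaphorin receptor, also crossed 0. SEPP1, the plasma selenoprotein P, was at 0.02 ± 0.12 in senescent cells, where it did not pass, and at 4.02 ± 0.18 in young ones per the authors' deposited tables. Over all genes tested for it, the senescent value was above the young one for 16.9% and below it for 16.3%. By list, it was above for 34 and below for 11 of 60 p53 targets. The median hairpin difference of the p53 targets was 1.89 in senescent and 1.04 in young cells. For contractile genes the counts above and below were 27 and 2 of 36. For lysosomal genes these counts were 3 and 40 of 62, for the ATF4 list 3 and 24 of 30 and for sterol and fatty acid genes 0 and 34 of 38. For mitosis genes they were 23 and 1 of 44, and the median hairpin difference of that list was -1.58 in senescent and -2.13 in young cells. CDKN1A did not pass the test of the difference, with 0.28 ± 0.14 (adjusted p = 0.0946), while MDM2 did, with 3.16 ± 0.15 (adjusted p = 2.55e-92).

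**Figure D5:**
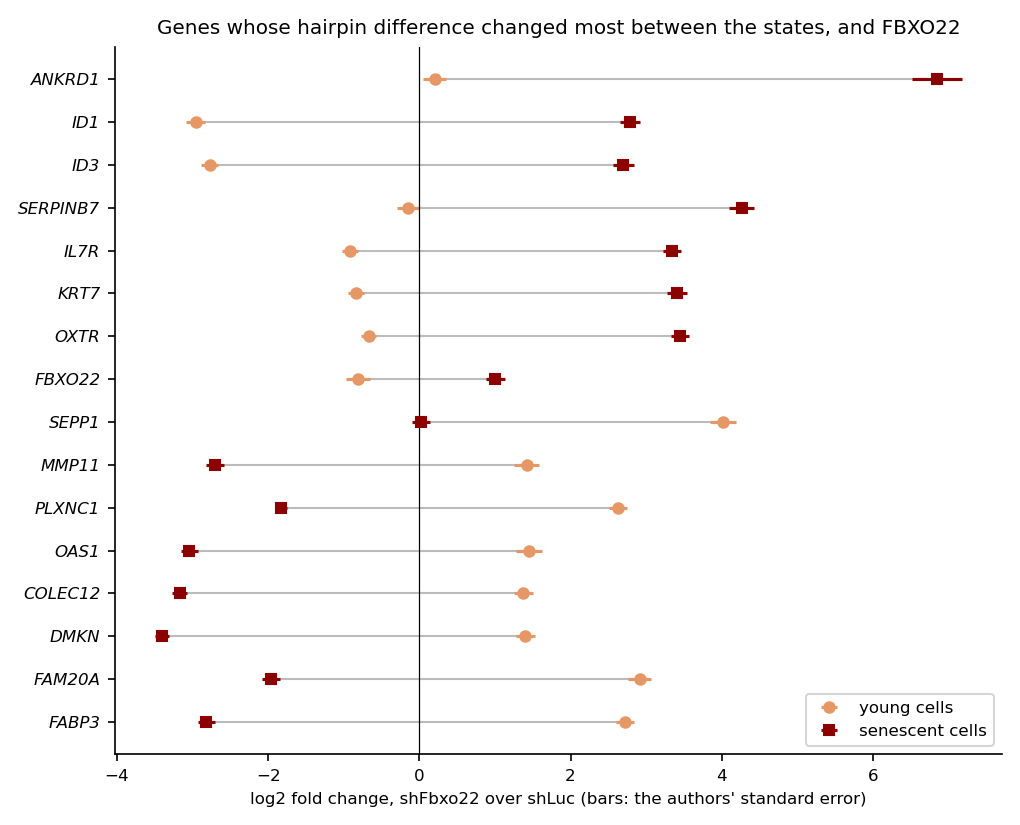
Log2 fold changes (shFbxo22 over shLuc) in young cells (circles) and senescent cells (squares), with the authors' standard errors as bars, for FBXO22 and 15 of the genes with the largest differences either way. ID1 and ID3 are near -3 in young and near 3 in senescent cells, and FABP3 shows the opposite order.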

How the data were processed

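Total RNA of HCA2 cells was purified on RNeasy columns and made into libraries with the Ion Total RNA-Seq kit v2, per the labels' protocols. The submitters' processing notes list DESeq2 1.14.1 under R 3.2.2 beside the aligners STAR 2.3.0 and Bowtie2 2.0.0 and the builds GRCh37 and hg19. The annotation is not given in the sources used here. Each deposited table compares 2 groups of 3 libraries. Per the file headers it holds a base mean, a signal of normalized counts averaged by the authors over 6 libraries. It also holds the authors' log2 fold change with its standard error, a Wald score and, per the file headers, a p-value with its Benjamini-Hochberg adjusted p-value. The base means summed to 21875579 normalized counts, the average per library after the authors' scaling. No values of single libraries are held, so the authors' fold changes and tests served as the main results, and the tests on library values foreseen in the design were not run. An adjusted p was deposited for 22788 of 55737 genes; the others, with low base means, entered no count. The fold changes are moderated towards 0, which understates low genes. Gene symbols are those of the tables (CTGF is CCN2 in RefSeq), and 28 rows with dates in place of symbols were left out.

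The direction of the fold changes was settled over genes whose base mean reached 200 in each of the 4 tables, and came out the same at 50 and at 1000. The difference between states was the senescent minus the young value, divided by the root of the sum of both squared standard errors, as a two-sided normal z test with Benjamini-Hochberg adjustment, and both tables share no library. This test and the choice of sign were also run on simulated data. The simulated differences were drawn with the same standard errors, so they cannot show whether those errors suit the real tables. The members and lists were chosen with earlier results of these data known. Named genes were the 15 largest changes and the 8 largest differences each way, at a base mean of at least 200. In each list they included up to 4 called members each way with the largest changes, at a base mean of at least 100. Up to 3 members that did not pass were added, those with the largest base mean. Lists of up to 12 members were named whole. Some genes that this rule names are not reported here. Alternatives were other thresholds, base mean limits and centrings. Promoters were read from RefSeq GRCh38.p14 by symbol and not by coordinate. Python 3.11.15, pandas 2.3.3, NumPy 2.4.6, SciPy 1.17.1 and matplotlib 3.10.9 were used.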

Additional observations from a re-analysis of the deposited data

Results flagged for a closer look

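The difference between the hairpins was unlike in senescent and young cells for FBXO22 and for 15 of the genes with the largest such differences, each by the z test of the difference itself. FBXO22 moved in opposite directions in the 2 states, with a senescent minus young difference of 1.82 on the log2 scale. Above 0 stood ANKRD1 with 6.64, ID1 with 5.74, ID3 with 5.47, SERPINB7 with 4.41, IL7R with 4.26, KRT7 with 4.24 and OXTR with 4.11. Below 0 stood FABP3 with -5.54, FAM20A with -4.87, DMKN with -4.80, COLEC12 with -4.55, OAS1 with -4.49, PLXNC1 with -4.46, MMP11 with -4.12 and SEPP1 with -4.0. The causes were not tested. Single libraries could not be compared, since the tables hold none.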

How the results depend on the processing

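Of 9140 called genes, 4608 higher and 4532 lower, a Bonferroni threshold kept 4193, with 2078 higher and 2115 lower, and a further limit of at least 2-fold kept 3556, with 1680 higher and 1876 lower. The stricter criteria themselves account for the smaller counts. At an adjusted p under 0.01, after adjustment over all rows with a p, at a base mean of at least 50 and under both centrings these counts stayed within 1.5 times. FBXO22 kept its direction and its call under every alternative that gave it a value, and the number of genes whose hairpin difference was unlike in both states ran from 4860 to 6873 around 6625. Of 734 named genes no called one changed sign under a centring, and PCDHGB6 lost its call under 1 centring with -0.47. No called one changed sign either when the fold change was replaced by a ratio of rebuilt group means. Those means came from the comparisons of senescent with young cells. That ratio rests on moderated fold changes too, so it does not show what moderation did. It moved 20 of the named genes, among them INPP5D from 7.86 to 10.4 and PDE4C from 7.45 to 9.02. Of 152 list counts 68 moved by over 1.5 times under Bonferroni and 112 with the 2-fold limit, against 15 or fewer under each other alternative. Leaving out each library in turn was not run, since the tables hold no values of single libraries. No paired analysis was possible because the tables hold no values of single libraries, so a replicate block could not be fitted. Low base means limit what could be called, and whether the sign of the deposited table is as labelled rests on the base means.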
